A study of Mus musculus with 5 samples.

Results

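The Hoxa genes Hoxa2, Hoxa3, Hoxa4, Hoxa5, Hoxa6, Hoxa7, Hoxa9, Hoxa10 and Hoxa11 are neighbours on mouse chromosome 6, and 3 of the 9 were measured well enough to test in myeloid progenitors with or without functional Bcor. Hoxa9, Hoxa7 and Hoxa5 were each higher in the Bcor-mutant cells, by 11.8-fold, 3.69-fold and 7.32-fold (the last moving by more than 1.5 times when either control library was left out), and the other 6 genes had between 0 and 15 counts over all 5 libraries together. The 9 rows were found by matching gene identifiers to these symbols, in a table of 52550 genes of which 52403 were given a symbol. The study asked how loss of Bcor function changes gene expression in progenitors of the blood.

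Bone marrow of the mice was sorted 20 weeks after tamoxifen for KL cells (Lin-cKit+Sca1-), the fraction in which committed myeloid progenitors lie, and 5 libraries were made. In 3 libraries (BcorΔE9-10, labelled scl-Cre-ERT + and Bcorfl/y) tamoxifen removed the floxed Bcor exons, and in 2 libraries (BcorWT, labelled scl-Cre-ERT + and Bcorwt/y) the allele was wild type. All 5 carried the inducible Cre transgene, which uses regulatory DNA of Tal1 (Scl) active in haematopoietic stem cells, and all came from male mice given 1 mg of tamoxifen per day for 5 days at 3 to 6 months of age. The mutant allele is a truncation and not a full deletion: the protein it can encode lacks the region that binds the Polycomb complex. The labels do not tie each library to its own mouse, so p-values measure the spread between these libraries, which may be technical. Because these are bulk samples, a larger share of expressing cells and more RNA per cell cannot be told apart.

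Hox genes encode homeodomain transcription factors that lie in clusters and are switched on in an order that follows their place on the chromosome. In blood, genes of the middle and later part of the Hoxa cluster are active in stem and early progenitor cells and are silenced as cells mature, and Hoxa9 together with Meis1 is a classical driver of myeloid leukaemia. Polycomb complexes keep silent Hox genes repressed, and Bcor is a subunit of a variant Polycomb complex that places ubiquitin on histone H2A and is recruited to DNA rich in unmethylated CG.

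Promoter sequence of the 3 genes that were higher, and of the neighbouring Hoxa10, which was near 0, is shown because CG content is the feature of DNA that this complex is known to follow. Each is the 250 bases before the RefSeq start on the minus strand of build GRCm38.p6, written 5′ to 3′ with every CG in capitals. The regions are chr6:52204588-52204837 for Hoxa5, chr6:52218574-52218823 for Hoxa7, chr6:52227371-52227620 for Hoxa9 and chr6:52234940-52235189 for Hoxa10.
Hoxa5: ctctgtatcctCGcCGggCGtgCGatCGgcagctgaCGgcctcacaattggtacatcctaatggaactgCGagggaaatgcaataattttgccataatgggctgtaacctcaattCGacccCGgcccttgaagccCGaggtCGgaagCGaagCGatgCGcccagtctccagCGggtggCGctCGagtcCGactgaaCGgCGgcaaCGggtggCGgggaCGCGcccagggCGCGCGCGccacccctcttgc
Hoxa7: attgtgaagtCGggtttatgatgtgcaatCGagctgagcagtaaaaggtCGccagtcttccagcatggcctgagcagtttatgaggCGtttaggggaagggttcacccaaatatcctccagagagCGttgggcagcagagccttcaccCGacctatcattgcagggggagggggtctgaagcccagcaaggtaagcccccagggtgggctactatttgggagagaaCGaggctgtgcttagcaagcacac
Hoxa9: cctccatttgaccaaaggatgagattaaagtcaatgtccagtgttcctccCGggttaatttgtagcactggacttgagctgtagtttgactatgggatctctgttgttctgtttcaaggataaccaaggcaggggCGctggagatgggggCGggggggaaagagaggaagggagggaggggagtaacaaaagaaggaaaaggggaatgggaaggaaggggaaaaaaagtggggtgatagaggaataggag
Hoxa10: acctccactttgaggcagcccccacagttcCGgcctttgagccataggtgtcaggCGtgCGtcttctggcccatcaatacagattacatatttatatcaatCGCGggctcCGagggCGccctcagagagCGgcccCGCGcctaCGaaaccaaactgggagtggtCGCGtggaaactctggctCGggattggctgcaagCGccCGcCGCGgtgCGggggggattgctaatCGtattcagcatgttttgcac

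The CG count ran from 28 in the Hoxa5 promoter to 7 in that of Hoxa7 and 3 in that of Hoxa9, against a median of 6 over all 32851 RefSeq mouse promoters of this length. As many CG or more were found in 7.61% of all promoters for the Hoxa5 count, in 46.3% for the Hoxa7 count and in 71.0% for the Hoxa9 count. The Hoxa10 promoter printed above held 20, and a second Hoxa10 start had 7. Among the members that were not tested, the count was 6 for Hoxa2, 18 for Hoxa3, 24 for Hoxa6 and 13 for Hoxa11, so high CG counts occurred both in Hoxa5, which was higher in the mutant, and in genes at or near 0. The letters TGATTTAT, searched on both strands as a pairing site of Hox and Pbx proteins, were in 0 of the 9 promoters of the 8 matched members and in 0.837% of all promoters. These windows cover only the starts that RefSeq gives, and Hoxa7 and Hoxa9 have exons further upstream in the table's annotation.

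Hoxa9, a posterior homeodomain factor needed for normal stem and progenitor cell function, spans 52223100 to 52231089 on chromosome 6. Its counts were 239, 128 and 281 in BcorΔE9-10 and 16 and 15 in BcorWT. Every mutant library was thus far above both control libraries, and the 2 controls were almost equal. As CPM, counts per 1000000 scaled with TMM factors, these were 28.2, 20.8 and 32.8 against 2.27 and 2.22, or 27.3 ± 6.02 (SD, n = 3) against 2.24 ± 0.0345 (SD, n = 2). The log2 fold change was 3.56 with a standard error of 0.47 and an adjusted p of 0.000192 (limma on voom values, Benjamini-Hochberg over 11766 genes). Hoxa9 ranked 51st of those genes by log2 fold change and 57th by p.

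Hoxa7, which lies next to Hoxa9 at 52214491 to 52221854 and is likewise linked to immature blood cells, had 185, 67 and 142 counts in the mutant libraries and 24 and 38 in the controls. Here the groups did not overlap either, but the lowest mutant library was only 10.9 CPM where the higher control was 5.62 CPM. The mean CPM was 16.4 ± 5.46 (SD, n = 3) in the mutant and 4.51 ± 1.57 (SD, n = 2) in the control. The limma log2 fold change was 1.89 with a standard error of 0.40 and an adjusted p of 0.00658. All of the last 300 exon bases of Hoxa7 in the annotation also belong to Hoxaas3, a transcript of the other strand, and the strand setting of the counting is not given in the sources used here, so reads of the pair cannot be told apart at that end. The RefSeq end of Hoxa7 lies short of the annotated one, at 52215623, beyond the Hoxaas3 gene, which reaches 52215076. Hoxaas3 itself had 7, 4 and 10 counts against 1 and 5, far below Hoxa7 in every library.

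Hoxa5, a gene of the middle of the cluster that is best known from lung and skeletal patterning and also acts in blood progenitors, spans 52201754 to 52204587. Its counts were 32, 24 and 69 in the mutant libraries and 2 and 9 in the controls. The groups did not overlap, but the third mutant library stood apart at 8.05 CPM, with 3.78 and 3.91 CPM in the other mutants and 0.283 and 1.33 CPM in BcorWT. The mean CPM was 5.24 ± 2.43 (SD, n = 3) in the mutant and 0.807 ± 0.741 (SD, n = 2) in the control. The limma log2 fold change was 2.87 with a standard error of 0.84 and an adjusted p of 0.0399. Hoxa5 passed the count filter through its mutant libraries alone, so with control counts this low it could be tested only by being higher there. Its call was the least secure of the 3: without the third BcorΔE9-10 library the adjusted p was 0.0793, without the first BcorWT library 0.268 and without the second 0.137. The log2 fold change itself went to 1.86 without the first BcorWT library and to 3.85 without the second, so the size of the Hoxa5 difference rests on which control is used. Hoxa7 lost its call only without the first BcorWT library (log2 fold change 1.52, adjusted p 0.0554), and Hoxa9 kept its call whichever library was left out.

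**Figure D1:**
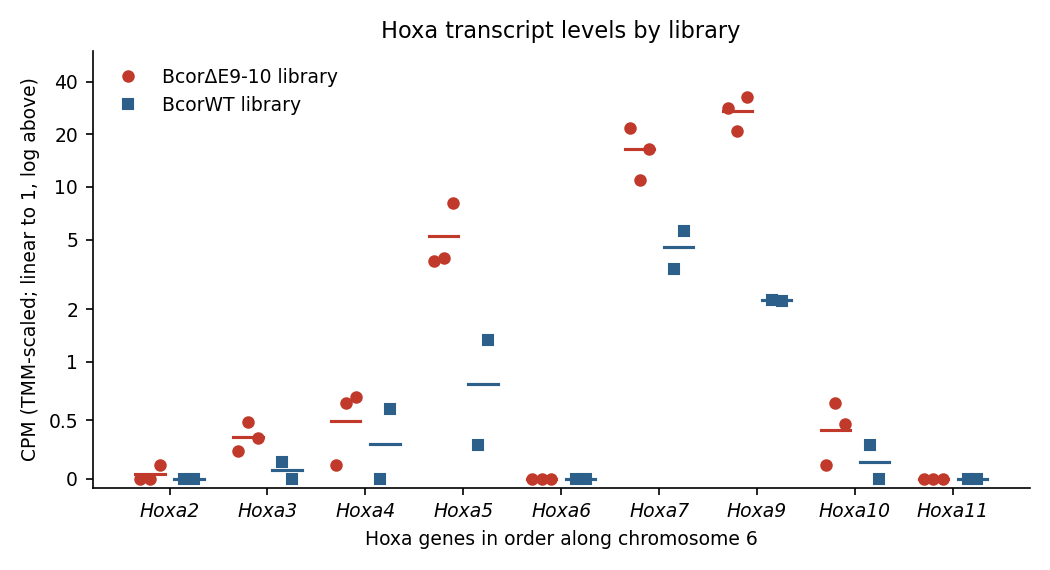
Level of each of the 9 Hoxa genes in every library, in CPM, on an axis that is linear up to 1 and logarithmic above. Circles are the 3 BcorΔE9-10 libraries, squares the 2 BcorWT libraries and bars the group means. Hoxa5, Hoxa7 and Hoxa9 stand above 3 CPM in every mutant library, and the other 6 genes lie below 1 CPM in every library.

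Of all 11766 genes tested, 6.02% were called higher, 4.09% lower and 10.1% in either direction. The share called higher was 2.29% without the first BcorWT library and 10.3% with scaling by total counts alone, and the share called in either direction was between 4.54% and 9.65% with 1 library left out. Hoxa9 and Hoxa7 had enough counts in both groups to pass the filter and were called higher. Hoxa5 was called higher too, but its direction was fixed by the filter, so it is not read against these shares. Every mutant library was above both controls for Hoxa9 and Hoxa7, an arrangement found in 22.5% of all genes tested. The 6 other members were not tested, so these calls do not describe the cluster as a whole.

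The untested members lie on both sides of the 3 that were called and between them. Hoxa2, the first in position and a hindbrain patterning gene, had 1 count in the third mutant library and 0 elsewhere. Hoxa3, known from the development of the thymus and parathyroid, had 2, 3 and 3 counts in the mutants and 1 and 0 in the controls. It was the only untested member with every mutant library above both controls in CPM, but the ratio of the group sums, each per total count, was 5.27 with a 95% counting interval of 0.707 to 234. Hoxa4 had 1, 4 and 6 counts against 0 and 4, and the ratio of sums was 1.81 (0.537 to 7.81). The Hoxa4 groups overlapped, and the intervals of both ratios include 1.

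Hoxa10, a posterior gene whose product works in myeloid progenitors much as that of Hoxa9 does, lies only 107 bases from the Hoxa9 gene. It had no more than 4 counts in any library: 1, 4 and 4 in the mutants and 2 and 0 in the controls. The ratio of sums was 2.97 (0.614 to 28.2), and the groups overlapped. Hoxa6, which lies between Hoxa5 and Hoxa7, and Hoxa11, the most posterior member, had 0 counts in all 5 libraries, which allows a level of up to 0.0813 CPM over the pooled libraries. For Hoxa6 this limit holds only for the transcript end as annotated, because the annotated end lies 1430 bases short of the RefSeq end and reads there would not have been counted. All intervals and limits cover counting error only. When the table was tested with no count filter, the log2 fold changes were 0.39 for Hoxa2, 1.70 for Hoxa3, 1.08 for Hoxa4 and 1.33 for Hoxa10, with limma adjusted p-values from 0.384 to 0.844. No difference was detectable in these 4 genes at this depth, which does not show that there was none. By counting error alone, the upper bound for Hoxa4, a ratio of 7.81, lies below the ratio of sums of 13.8 (9.61 to 20.5) for Hoxa9. The upper bounds for Hoxa3 (234) and Hoxa10 (28.2) do not. With no filter, the spread between libraries gave standard errors of 1.05 for Hoxa4 and 0.46 for Hoxa9 (log2 fold change 3.57). Whether the 2 genes differ in their change was not tested. All of the last 300 exon bases of Hoxa3 and 255 of those of Hoxa4 are shared with genes of the other strand, so the counts of both, and the bound for Hoxa4, carry the limit given for Hoxa7.

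Summed over the 9 members, the mutant libraries held 460, 230 and 506 Hoxa counts and the controls 45 and 66. The summed CPM was 50.2 ± 11.3 (SD, n = 3) in the mutant and 8.07 ± 2.39 (SD, n = 2) in the control, and the ratio of these means was 6.23. Hoxa5, Hoxa7 and Hoxa9 together supplied between 93.3% and 99.1% of the Hoxa counts in every library.

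The make-up of these counts was also compared. Hoxa9 was 52.0%, 55.7% and 55.5% of Hoxa counts in the mutant libraries and 35.6% and 22.7% in the controls. The Wilson 95% intervals of the controls, 23.2 to 50.2% and 14.3 to 34.2%, are wide because few counts stand behind them, and that of the first control overlapped those of the first 2 mutant libraries, which start at 47.4% and 49.2%. Hoxa7 was 40.2%, 29.1% and 28.1% against 53.3% and 57.6%, so it gave the most counts in both controls and Hoxa9 in all 3 mutants. Hoxa5, at 6.96%, 10.4% and 13.6% against 4.44% and 13.6%, held a share that overlapped between the groups.

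**Figure D2:**
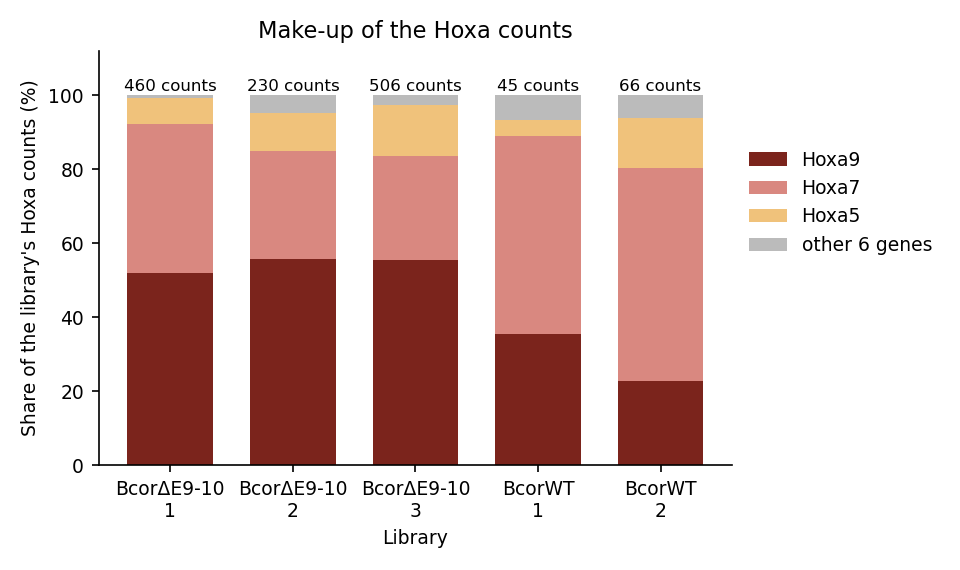
Share of each library's Hoxa counts, in percent, that came from Hoxa9, Hoxa7, Hoxa5 and the other 6 genes, with the number of Hoxa counts printed above each bar. The Hoxa9 section is 52.0% or more in the 3 BcorΔE9-10 libraries and 35.6% or less in the 2 BcorWT libraries.

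There were 1.29, 1.91 and 1.98 Hoxa9 counts for each Hoxa7 count in the mutant libraries and 0.667 and 0.395 in the controls. The log2 of this ratio was 0.76 ± 0.34 (SD, n = 3) against -0.96 ± 0.53 (SD, n = 2), a difference of 1.73. A two-sided exact permutation test over the 10 arrangements of the 5 libraries gave p = 0.1 by the absolute difference and p = 0.2 by doubling the one-sided p, each the smallest it can give, so this test cannot reach the threshold of 0.05 with these groups. Per kb of summed exon, the mean level was 4.89 CPM for Hoxa9, 5.71 CPM for Hoxa7 and 2.79 CPM for Hoxa5 in the mutant, and 0.402, 1.57 and 0.430 CPM in the control. On that scale Hoxa7 and Hoxa9 were within the library spread of each other in the mutant and Hoxa7 was the higher in both controls. A 3′ method counts transcript ends and not length, so the values per kb do not rank these genes. By counts, Hoxa9 was above Hoxa7 in every mutant library.

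The Hoxa9 gene also contains miR-196b, a microRNA that targets Hox transcripts. Its mature sequence, from RefSeq, is shown with the seed (bases 2 to 8) in capitals, followed by stretches of the longest coding transcripts of 3 members with the letters that pair with that seed in capitals, since these are the cluster's own matches to a microRNA made from the same locus. The microRNA lies at chr6:52230129-52230150 on the minus strand of GRCm38.p6.
miR-196b-5p: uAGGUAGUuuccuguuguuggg
Hoxa5: gatatttttattcaaACTACCTa
Hoxa7: aggcacagccaaaatACTACCTa
Hoxa9: gcaaaaggaaagaaaACTACCTt

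Hoxa7 held 4 such matches in its transcript of 2009 bases, the one printed lying 903 bases before the end, and Hoxa4, Hoxa5, Hoxa6 and Hoxa9 held 1 each. Hoxa2, Hoxa3, Hoxa10 and Hoxa11 held 0. Of all 21877 genes with a coding transcript, 16.0% had at least 1 match, and 12.7% of the 9081 with a transcript of 1400 to 3300 bases did. A match of letters is a description and not a shown target site. The miR-196b precursor had 0 counts in every library, which says nothing of the mature microRNA, since these libraries are made from polyadenylated RNA.

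The changes were then set against the surrounding chromosome. From Hoxa2 to Evx1, a stretch of 156.0 kb, the table held 24 rows besides the 9 members, 3 of them with a count and 0 with enough to test. Of these 3, Hoxaas3 is given above, Gm15050 had 4 counts in the second mutant and 1 in the second control, and Gm29430 had 1 count in the first mutant library. Within 1000000 bases on either side, 7 genes were tested and 1 was called, Hnrnpa2b1, an RNA-binding protein gene that was higher by 0.54 on the log2 scale (limma adjusted p 0.00489), a call lost without the first BcorWT library (log2 fold change 0.36, adjusted p 0.0970). Over all genes tested 10.1% were called. The median log2 fold change of the 7 was 0.07, against 0.00 over all genes tested.

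The nearest tested genes outside the interval were not called. On the Hoxa2 side these were Skap2 (log2 fold change -0.24, limma adjusted p 0.163), Snx10 (-0.18, 0.579) and Cbx3 (0.11, 0.572), which code for a signalling adaptor, a sorting nexin and a heterochromatin protein. On the Evx1 side they were the pseudogene Gm8129 (0.07, 0.695), Hibadh (0.65, 0.0912), an enzyme of valine breakdown, and Tax1bp1 (0.06, 0.828), an autophagy receptor. Gm8129 spans 213 bases and had 2385 to 3275 counts. The multi-mapping setting is not given in the sources used here, so the origin of its reads is uncertain.

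**Figure D3:**
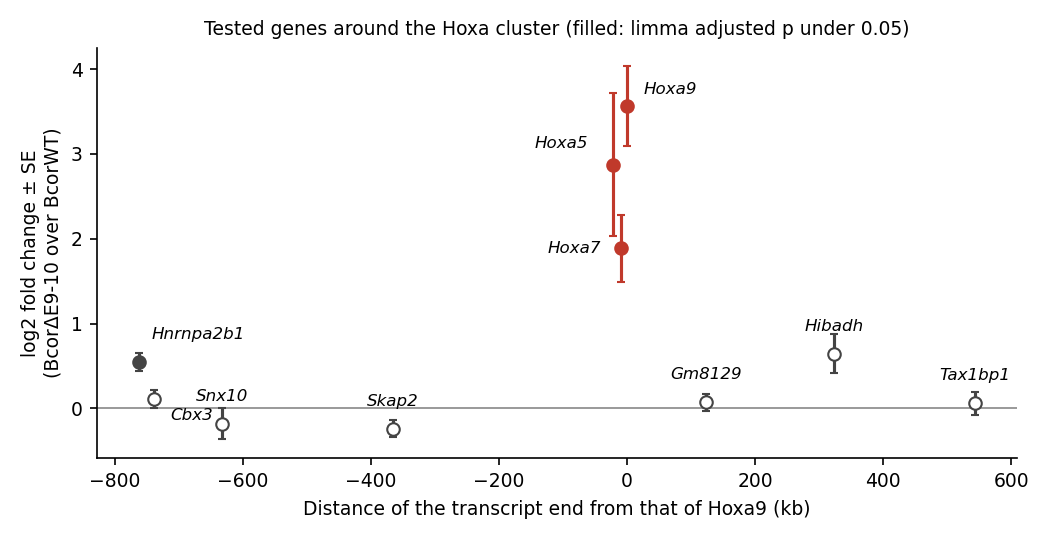
log2 fold change of BcorΔE9-10 over BcorWT for each tested gene in and around the Hoxa cluster against the distance in kb of its transcript end from that of Hoxa9. Bars are 1 standard error and filled circles passed an adjusted p of 0.05 in limma. Hoxa5, Hoxa7 and Hoxa9 lie at 1.89 and above and the 7 flanking genes at 0.65 and below.

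Other Hox genes were mostly silent. Of 29 genes (Hoxa13 and those of the Hoxb, Hoxc and Hoxd clusters), 7 had a count and 2 had enough to test, and neither was called. Hoxb4, a stem cell gene of the Hoxb cluster, had 44, 31 and 37 counts in the mutants and 36 and 37 in the controls, and the limma estimate on the log2 scale was -0.13 (adjusted p 0.844), which became 0.02 when libraries were scaled by total counts alone. Hoxb3 had 27, 16 and 16 counts against 8 and 7, with a limma log2 fold change of 1.14, a standard error of 0.62 and an adjusted p of 0.272. Its mutant libraries were all above its controls in count, but like Hoxa5 it passed the count filter through the mutant libraries alone, and the difference did not pass the test. The Cdx genes, which switch on Hox clusters in the embryo, had 0 counts in all libraries for all 3.

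Hox proteins bind DNA with partners of the TALE class, the Meis, Pbx, Pknox and Tgif genes. Of 10 followed here, 7 were tested, 0 were called higher and 2 were called lower, where 4.09% of all genes tested were called lower, and the median log2 fold change was -0.07. Meis1, the partner best known beside Hoxa9, had 42, 19 and 52 counts in the mutants and 22 and 20 in the controls, so the groups overlapped in counts (log2 fold change 0.62 ± 0.43 SE, limma adjusted p 0.386). Pbx3 fell, from 45 and 51 counts in the controls to 17, 18 and 14 in the mutants, with no overlap (log2 fold change -1.72, limma adjusted p 0.0109). Tgif2, a repressor of TGF-beta signalling, had 22, 20 and 19 counts in the mutants and 38 and 51 in the controls (log2 fold change -1.27, limma adjusted p 0.0419).

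Leaving out the third mutant library ended both calls, with limma adjusted p-values of 0.0581 for Pbx3 and 0.135 for Tgif2. The Tgif2 call was also lost without the first mutant library (adjusted p 0.101), without the second (0.0747) and without the second control (0.169). DESeq2 (adjusted p 0.0616) and scaling by total counts alone (0.0637), which moved the all-gene median to 0.15 on the log2 scale, did not call Tgif2 either. Pbx2 (-0.32, adjusted p 0.123), Pknox1 (0.32, 0.335) and Tgif1 (-0.07, 0.920) were detected and not called by limma.

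Of 12 genes often described as targets of Hoxa9 in blood, 11 were tested, 2 were higher, 1 was lower and 8 were not called. Over all genes tested 6.02% were called higher and 4.09% lower. The median log2 fold change was 0.38 in the list. Over all genes tested it was 0.00, and 0.15 with scaling by total counts alone. Lmo2, a cofactor of early blood formation, rose from 191 and 212 counts to 451, 342 and 473 (log2 fold change 0.91, limma adjusted p 0.00163). Myb, a transcription factor of progenitor growth, had 2705, 1829 and 2562 counts in the mutants and 1686 and 1486 in the controls (log2 fold change 0.41, limma adjusted p 0.0201). The Myb call was lost without the first (adjusted p 0.0887) or the third mutant library (0.0638) and without the second control (0.0887). Cybb, a subunit of the phagocyte oxidase that appears as cells mature, was lower (log2 fold change -0.55, limma adjusted p 0.00366). Cdk6, Igf1r, Bcl2 and Pim1 were not called, at 0.20, 0.03, 0.45 and 0.58 on the log2 scale. Flt3, a cytokine receptor of early progenitors, had 35, 43 and 15 counts against 12 and 5 and was not called either (log2 fold change 1.55, standard error 0.76, limma adjusted p 0.219). Its second control was below the minimum count of 10, so Flt3 passed the filter through its mutant libraries. The number called higher went from 1 without the first or the third mutant library to 5 with scaling by total counts alone. The list was drawn up with earlier results of these data known and is not independent evidence.

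**Figure D4:**
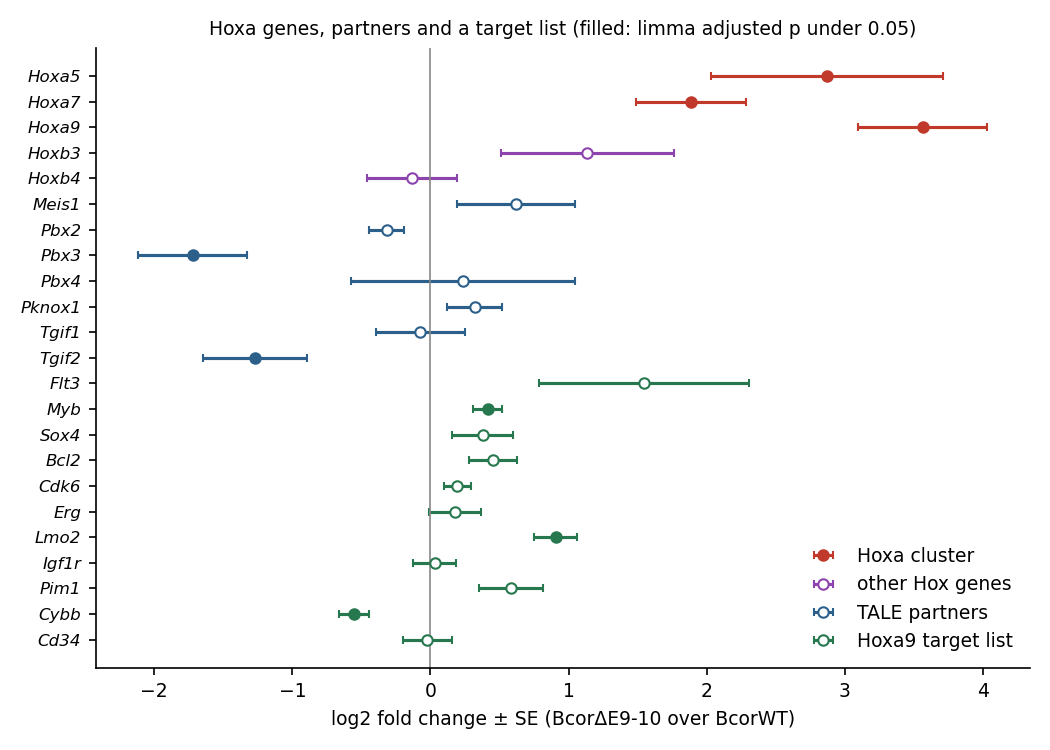
log2 fold change of BcorΔE9-10 over BcorWT, with 1 standard error, for the tested Hoxa genes, other Hox genes, TALE partners and described targets of Hoxa9. Filled circles passed an adjusted p of 0.05 in limma. The 3 Hoxa genes lie furthest to the right, at 1.89 to 3.56, and Pbx3 furthest to the left at -1.72.

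The genes whose profile over the 5 libraries was nearest to that of Hoxa9 were Tap2 (a peptide transporter), Ldb1 (a cofactor of LIM-domain proteins), Ppp2cb (a phosphatase subunit), Carf and Gm11878. Their root mean square differences from Hoxa9, in centred log2 CPM over 9397 genes compared, were 0.454, 0.472, 0.490, 0.504 and 0.545. Those of Hoxa5 and Hoxa7 from Hoxa9 were 0.732 and 0.861. The 5 genes were picked as the nearest of all those compared, so their smaller distances follow from that choice. Ppp2cb (6 and 6 counts in the controls) and Carf (8 and 9) passed the count filter through the mutant libraries alone. Nearest to Hoxa7 were Slc32a1, Bahd1, Tgfbr2, Nr4a1 and Psg16, at 0.255, 0.268, 0.268, 0.277 and 0.294. Tap2, Ldb1, Carf and Slc32a1 share 698, 177, 61 and 697 exon bases with genes of the other strand, and Psg16 belongs to a family of similar genes, so their counts are uncertain.

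The marker of the sort moved with the Hoxa genes. Kit, the receptor by which KL cells are gated, had 452, 307 and 423 counts in the mutants and 128 and 132 in the controls (log2 fold change 1.43, limma adjusted p 9.82e-05). Ly6a, which encodes the Sca1 that the gate excludes, had 8, 7 and 7 counts against 4 and 3. Of 10 markers of stem and multipotent cells, 9 had a count, 1 could be tested (Hlf, log2 fold change 0.32, limma adjusted p 0.594) and Fgd5 was at 0. The summed level of the 10 was 10.6 to 16.0 CPM in the mutants and 7.80 to 9.32 CPM in the controls, with few counts for each gene but Hlf. The single genes did not all lean one way. Esam, an adhesion molecule of stem cells and endothelium, had 13, 7 and 8 counts against 0 and 1, and Robo4 had 0, 3 and 4 against 0 and 0. Procr had 5, 6 and 6 counts against 10 and 1, Slamf1 had 1, 0 and 11 against 1 and 9, and Mecom had 1, 0 and 1 against 2 and 0.

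Markers of some more mature cell types moved too. Neutrophil markers summed to between 148964 and 172829 CPM in the mutants and between 215555 and 227392 CPM in the controls. Of the 10, 6 were called lower and 4 were not called. Among these 4, Camp leaned higher (log2 fold change 0.25, limma adjusted p 0.114) and Cxcr2 lower (-0.33, 0.696). Retnlg and Mmp8 were at 828 and 803 CPM in the first control. In the second control they were at 259 and 276 CPM, below every mutant library. Basophil, mast cell and eosinophil markers summed to between 561 and 828 CPM against between 1291 and 1596 CPM, with 6 of 8 called lower, where 4.09% of all genes tested were. Erythroid markers summed to between 64.8 and 260 CPM against between 26.5 and 69.7 CPM, with 1 of the 7 tested, Car1, called higher. Of the 7 myeloid progenitor markers, summed at 6944 to 8220 CPM against 7457 to 8318 CPM, only Kit was called. The share called in either direction over all genes tested was 10.1%. No marker was called among the 6 tested for monocytes, macrophages and dendritic cells (102 to 124 against 119 to 136 CPM), the 5 for megakaryocytes (43.9 to 69.4 against 26.6 to 45.6 CPM) or the 6 for lymphoid cells. The lymphoid sum was 141 to 180 CPM against 193 to 199 CPM, most of it from Nkg7, a gene of cytotoxic cells, and without Nkg7 it was 12.0 to 24.1 CPM against 9.91 to 16.3 CPM. The part of cell composition in the Hoxa differences was not tested.

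Total counts ran from 5998924 to 8303999 per library, and the library with the lowest total was a mutant one. Over the whole table limma called 1189 of 11766 genes, 708 higher and 481 lower, and the split was 1210 to 197 with scaling by total counts alone. Bcor, the targeted gene, had 196, 168 and 185 counts in the mutants and 83 and 109 in the controls (log2 fold change 0.78, limma adjusted p 0.0313). This call was lost in 6 of the 16 alternatives, among them the fit without each of the 3 mutant libraries (adjusted p 0.0553, 0.0892 and 0.0521) and that without the first control (0.272). Those counts come from the transcript end, outside the deleted exons, and so check nothing about the deletion.

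**Figure D5:**
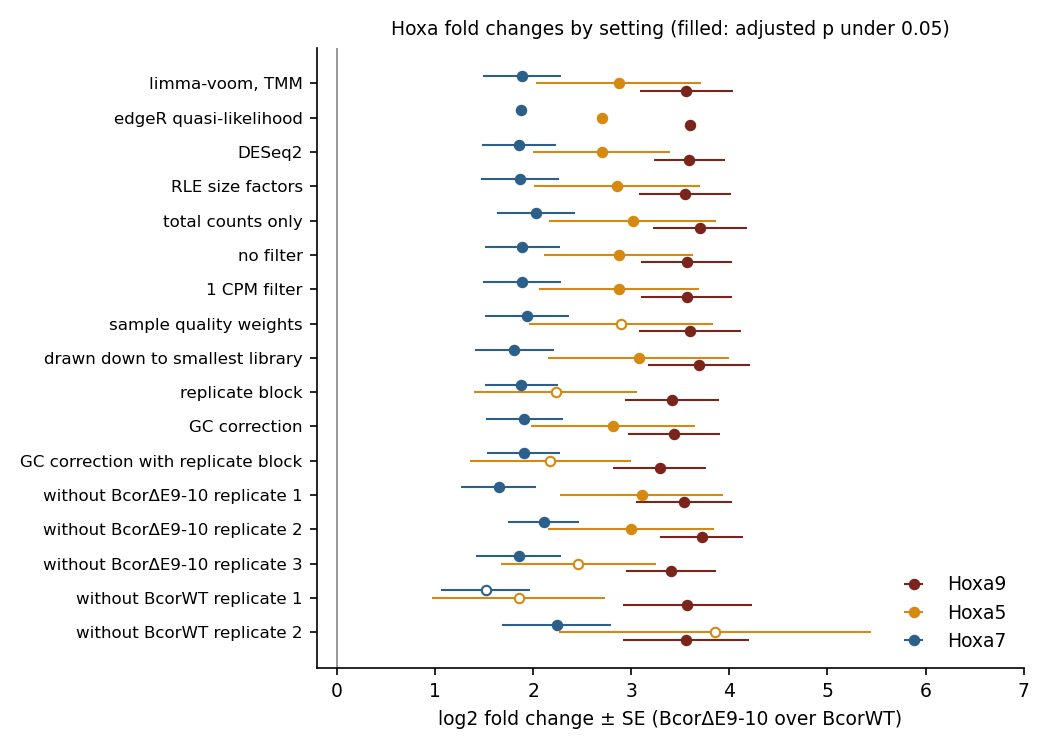
log2 fold change of Hoxa9, Hoxa5 and Hoxa7 in the limma fit and in 16 alternatives, with 1 standard error where the tool gives one. Filled circles passed an adjusted p of 0.05. Hoxa9 stays between 3.29 and 3.72 and is filled throughout, Hoxa7 lies between 1.52 and 2.24, and Hoxa5 between 1.86 and 3.85 with 6 open circles.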

How the data were processed

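RNA from sorted KL cells was made into QuantSeq 3′ mRNA libraries, which read the end of each polyadenylated transcript. The authors trimmed reads, aligned them to mm10 with HISAT2 and counted them per gene with featureCounts; the submitters' processing notes name bcl2fastq 2.17.1.14, cutadapt 1.7 and Subread 1.5.0-p3. The deposited values are whole counts of reads for each gene, not normalised, with 5998924 to 8303999 counts per library, and 0 columns of per-sample values were left unused. The strand and multi-mapping settings are not given in the sources used here.

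Counts were tested with limma 3.58.1 (voom, TMM factors from edgeR 4.0.16, R 4.3.3) on genotype, two-sided, after filterByExpr (minimum count 10, minimum total 15), with Benjamini-Hochberg adjustment over 11766 genes and a threshold of 0.05. The fit was first tested on simulated data with known changes. Alternatives were edgeR's quasi-likelihood test, DESeq2 1.42.0, other scalings and filters, library quality weights, counts drawn down to 5998924, a replicate block, leaving out each library, and, chosen after seeing the data, a correction for GC content over the final 300 bases of each transcript.

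Samples were grouped by genotype label and title. Same-numbered libraries of the 2 groups were not known to share a mouse, litter or day, and their deviations correlated at 0.070 and 0.076, so the numbers were not taken to pair them. Intervals are 95% (Wilson for shares, exact for Poisson counts and their ratios), and a count of 0 was read as up to 3 counts.

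Named genes were the 9 members, the called and a few of the most abundant uncalled genes of the pathway lists, rows with a count from Hoxa2 to Evx1, the 3 nearest tested genes on each side, the 5 nearest profiles to Hoxa9 and to Hoxa7 among genes averaging 2 or more in log2 CPM, Bcor, Kit and Ly6a. Mecom, Esam, Robo4, Procr, Slamf1, Hlf, Car1, Gata1, Camp, Cxcr2, Retnlg, Mmp8, Flt3, Nkg7 and Hnrnpa2b1 were named after their values were seen. The members and lists were chosen with earlier results of these data known. Some planned items of the lists and of the interval are not reported here, and counts leave them out. Sequences are from RefSeq (GRCm38.p6) and GENCODE transcripts.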

Additional observations from a re-analysis of the deposited data

How the results depend on the processing

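Hoxa9 kept its direction and call in all 16 alternatives (log2 fold change 3.29 to 3.72, adjusted p up to 0.00243), Hoxa7 in 15 and Hoxa5 in 10. Besides the 3 fits without a library given above, Hoxa5 missed the threshold with library quality weights (log2 fold change 2.90, adjusted p 0.0651). It also missed it with the replicate block (2.23, 0.0554) and with the GC correction and block together (2.18, 0.0680). The third BcorΔE9-10 library is alone in its block, so the fits with a block estimate the genotype difference without it. The number of members called was 3 in most alternatives. It was 2 with the quality weights, with the block and with the GC correction and block, where Hoxa5 was the one lost. Over all genes tested 5.06%, 7.57% and 6.23% were called higher in these fits. Without 1 BcorΔE9-10 library the number was 2 or 3. Hoxa5 is in these numbers although the filter fixed its direction, so they are not read against the shares. The summed Hoxa log2 difference of 2.64 ranged from 2.34 to 2.95 over its scalings and left-out libraries.

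Over the whole table, 558 to 1200 genes were called when 1 library was left out, and 1002 to 1454 in the other alternatives, 1454 with the replicate block. With 1 BcorWT library left, its spread was taken from the BcorΔE9-10 libraries. For the pathway lists and single genes below, alternatives were chosen after seeing the data. TALE genes called lower were 2, and 1 with DESeq2, total counts alone, no filter, counts drawn down, the replicate block and the GC correction with block, and 0 to 2 when 1 library was left out. Genes called higher in the Hoxa9 target list were 5 with total counts alone, 4 with the replicate block and 4 with the GC correction and block. Over all genes tested 10.3%, 7.57% and 6.23% were called higher in these fits. Without 1 BcorΔE9-10 library the number in the list was 1 or 2. Of single calls, Kit, Lmo2 and Cybb held in all 16 alternatives, Pbx3 in 15, Myb in 13 and Tgif2 in 6. Bcor held in 10 and, besides the left-out libraries given above, was no longer called with the GC correction (log2 fold change 0.41, adjusted p 0.254) or the GC correction and block (0.48, 0.221), and Hnrnpa2b1 lost its call only without the first BcorWT library. The filter on 1 CPM in 2 libraries and 30 counts kept more genes (12076) than the one used and was no stricter. The cause of these changes was not tested beyond the fewer libraries that the left-out fits hold. The 6 untested members had too few counts for the test.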
